A study of Homo sapiens with 6 samples.

Results

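The interferon regulatory factors (IRFs) are a family of transcription factors that share a DNA-binding domain and recognise copies of the letters GAAA in the control regions of interferon genes and of interferon-stimulated genes. Nucleic acid sensors activate some members by way of kinases. Interferon receptors act on others through the JAK and STAT proteins, and a further pair is best known from blood cells. In pancreatic beta cells they are known as mediators of the response to interferon, which raises the antigen presentation that autoimmune T cells read. Chromatin accessibility at the genes of 8 members (IRF1, IRF2, IRF3, IRF4, IRF5, IRF7, IRF8 and IRF9) is described here in EndoC-βH3. This beta cell line was made from human fetal pancreas and immortalised with hTERT and the SV40 large T antigen.

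The measurement was ATAC-seq, in which the Tn5 transposase cuts and tags DNA where chromatin is open. Of the 6 libraries, each from 100000 cells, 3 came from non-senescent cells that kept the immortalising transgenes, and 3 from senescent cells in which 3 weeks of 4-hydroxy tamoxifen had led Cre recombinase to excise them. Both groups came from the same line, labelled WT in genotype. The level used here was the authors' mean of normalised counts over the libraries (the mean signal), so every value stands for the senescent and non-senescent cells together, carries no spread, and says nothing of a difference between the groups. The depth of the libraries cannot be read from this mean. A low mean may stem from a site that is open in few cells or slightly open in many, and these cannot be told apart. Since wide regions collect more reads, levels were compared per kb of region.

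Regions were chosen by position alone. A promoter region lay within 2 kb of the start site of a protein-coding transcript of a member. A distal region was one outside all such promoter windows whose nearest start site belonged to a member and lay within 100 kb. Of the 108542 regions, 36 met the rule, 11 as promoter regions and 25 as distal regions, against 20094 promoter and 55158 distal regions of all genes. IRF1, IRF2, IRF3 and IRF8 had 2 promoter regions each, IRF4, IRF5 and IRF9 had 1 each, and IRF7 had 0. Among all 19663 protein-coding genes, 21.2% had no promoter region and 23.9% had 2 or more. The promoter region nearest to the edge of the window was the upstream region of IRF8, 1514 bp from a start site, and the nearest region outside it was that of IRF7, at 2925 bp.

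The cell type was checked by its markers. All 18 beta cell markers had a promoter region, with a median level of 1466 per kb for the strongest region of each gene, while only 3 of 12 markers of immune cells had one. Markers of alpha cells had a promoter region in 3 of 3 genes (median 139.9, but 771 per kb at IRX2, above the median of all genes), exocrine markers in 3 of 6 (median 737) and stromal and endothelial markers in 3 of 6 (median 119). The lowest and highest levels per kb were 118 at CELA3A and 1298 at CPA1 for exocrine cells, and 99.7 at KDR and 144 at PECAM1 for stromal and endothelial cells. Of all 19663 protein-coding genes, 15493 had a promoter region, with a median of 686 per kb. IAPP, which encodes the islet hormone amylin, had the lowest value of the beta cell list at 435 per kb.

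**Figure D1:**
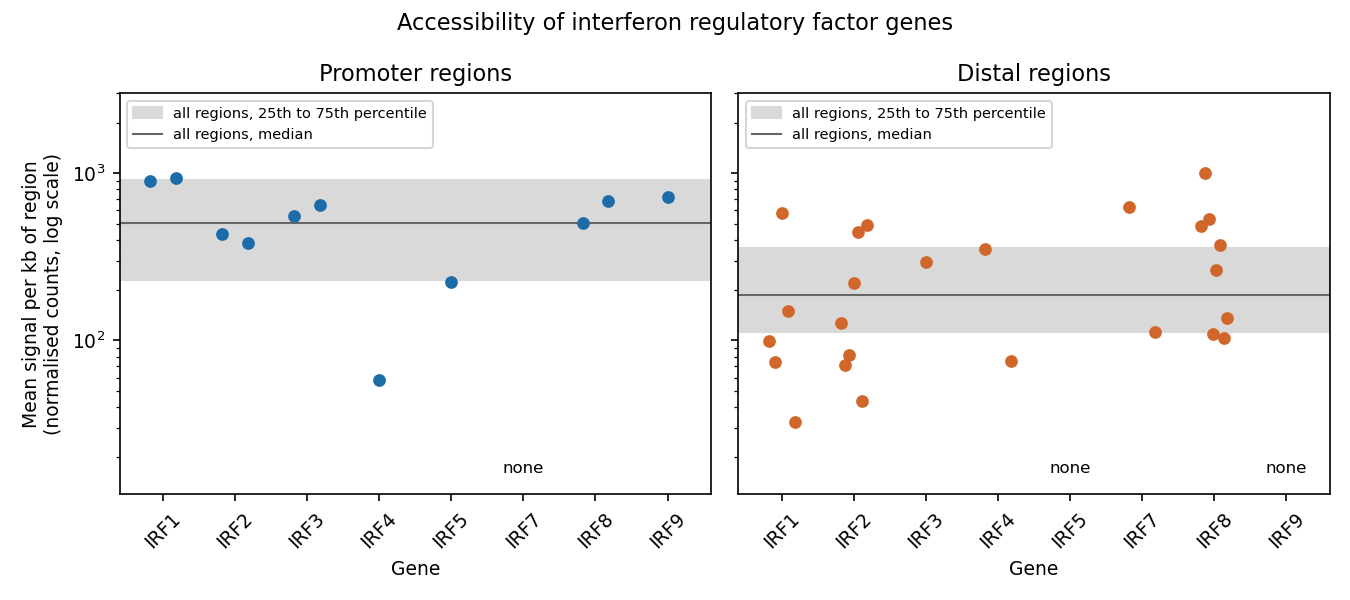
Mean signal per kb of every promoter region (left) and distal region (right) of the 8 genes, on a log axis, with 1 point for each region. The grey band spans the 25th to the 75th percentile of all regions of that kind and the line is their median (507 per kb for promoter regions and 187 for distal regions). The IRF1 promoter regions stand highest on the left and the IRF4 region lowest, and the highest distal point is a region of IRF8 at 1005 per kb.

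IRF1, an activator that interferon gamma induces, had the most accessible promoter of the family. Its main cluster of start sites lay under the region chr5:132490045-132491380, which holds 5 of its start sites, with a mean signal of 1208 and a level of 905 per kb. This was at percentile 74.6 of all promoter regions. A further region, chr5:132495778-132497250, covered an alternative start site, had a mean signal of 1382 and reached 939 per kb (percentile 76.01). The midpoints of these regions were 5802 bp apart and their levels were nearly equal. The sequence is shown because the known inducer of the gene acts through it: the RefSeq promoter window of IRF1 (GRCh38.p14, chr5:132490724-132491023, minus strand), from 250 bases before the start to 50 after it, lay wholly inside the first of these regions. Capitals mark a match to the gamma-activated site TTCNNNGAA, the recognition sequence of STAT dimers, 124 bp before the start, and a match to the kappa B site of NF-kB, 50 bp before it.
IRF1 promoter window: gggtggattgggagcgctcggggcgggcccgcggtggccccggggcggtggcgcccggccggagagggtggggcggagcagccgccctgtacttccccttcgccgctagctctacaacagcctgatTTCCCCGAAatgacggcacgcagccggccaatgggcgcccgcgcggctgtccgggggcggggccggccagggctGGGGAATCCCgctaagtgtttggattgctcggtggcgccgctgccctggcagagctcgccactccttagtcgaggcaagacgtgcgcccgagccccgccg
Of 35116 RefSeq promoter windows of all genes, 7.66% held a gamma-activated site and 5.91% a kappa B site on either strand. The window had a GC content of 73.7%, at percentile 88.1 of all windows.

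The upstream region of IRF1 also held a gamma-activated site near its middle. Its central 300 bp (hg38, chr5:132496365-132496664, plus strand) are shown to set this alternative promoter beside the main one, with the match in capitals.
IRF1 upstream promoter region: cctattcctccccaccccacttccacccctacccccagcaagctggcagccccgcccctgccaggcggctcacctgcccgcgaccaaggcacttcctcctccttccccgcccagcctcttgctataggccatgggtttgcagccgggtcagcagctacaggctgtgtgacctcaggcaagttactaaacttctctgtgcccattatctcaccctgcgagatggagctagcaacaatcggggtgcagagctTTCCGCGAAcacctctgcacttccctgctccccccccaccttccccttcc
The whole region contained 3 such sites and 1 interferon-stimulated response element, searched as the letters GAAANNGAAA on either strand. Its CpG content was below that of the main promoter, with an observed over expected ratio of 0.617 against 0.841. IRF1 had 5 distal regions, all of them in introns of IRF1 or of ENSG00000283782, a protein-coding gene that overlaps it. The strongest (chr5:132501332-132501737) lay 5067 bp upstream of the nearest start site, with a mean signal of 234 and 577 per kb, at percentile 86.7 of all distal regions. The other 4 had levels between 32.7 and 151 per kb. The promoter regions held most of the signal of this gene, and its distal regions only 13.3%.

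IRF2 binds the same sites as IRF1 and is known chiefly as its antagonist. It had 2 promoter regions of middling level, 973 bp apart. The region over the start sites (chr4:184474310-184475286), which held 7 of them, had a mean signal of 375 and 384 per kb (percentile 40.04), and the region 1174 bp downstream in an intron (chr4:184472332-184473337) had a mean signal of 437 and 435 per kb (percentile 44.4). The IRF2 promoter was thus below IRF1 in level, and its stronger region covered none of its start sites. The region over the start sites was also the only member region with an interferon-stimulated response element in its central 300 bp, and held 2 over its whole length. IRF2 had 7 distal regions, which spread from 63169 bp upstream to 91474 bp downstream of the nearest of its start sites. For the farthest downstream region (chr4:184357184-184357383), which lay past the 3′ end of the gene, that start was an alternative one inside the gene. It thus lay farther still from the promoter regions above. The strongest (chr4:184537149-184538305) was the far upstream one, with a mean signal of 565 and 488 per kb (percentile 83.02), and it held 1 gamma-activated site. The next (chr4:184440055-184440826), in an intron 8317 bp from a start site, reached 445 per kb and was the only distal region of the family with an interferon-stimulated response element anywhere in it. The 5 weaker regions had between 43.6 and 219.8 per kb, so that the 2 strong ones stood apart from the rest. Distal regions together held 56.96% of the signal of this gene.

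IRF3 and IRF7 are the members that the kinases TBK1 and IKK epsilon phosphorylate once foreign or misplaced nucleic acid is sensed, after which they switch on interferon genes. IRF3 is present before any stimulus in most cells, while IRF7 is itself a strongly interferon-inducible gene. IRF3 had 2 promoter regions separated by 322 bp, chr19:49664252-49665020 with a mean signal of 429 (559 per kb, percentile 54.04) and chr19:49665342-49666168 with a mean signal of 537 (650.1 per kb, percentile 60.5). The latter held 15 of its start sites. Both regions also lay within the promoter window of BCL2L12, a gene transcribed in the opposite direction, so that their signal cannot be assigned to IRF3 alone. IRF3 was the only member to share a promoter region with another protein-coding gene. A single distal region (chr19:49659788-49660050) lay 4919 bp downstream, in an intron of IRF3, with a mean signal of 76.7 and 293 per kb (percentile 68.5).

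For IRF7 no region of the table lay within 2 kb of a start site of its protein-coding transcripts. Of its 2 distal regions, that at the 3′ end of the gene (chr11:612241-612722), 3166 bp downstream of a start site, was weak, with a mean signal of 53.8 and 112 per kb (percentile 24.4). The other (chr11:601518-602173) lay 13802 bp away in an intron of the neighbouring gene PHRF1, with a mean signal of 412 and 628 per kb (percentile 88.3). A promoter region was thus lacking for 1 of the 8 members (12.5%), beside 21.2% of all genes.

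IRF9 is the main DNA-binding subunit of ISGF3, the complex that carries the type I interferon signal to the response elements. Its single promoter region (chr14:24160790-24161686) was centred 7 bp from a start site, covered 14 start sites and had a mean signal of 647 and 723 per kb, at percentile 64.95. Per kb this level was second to IRF1 within the family, but by mean signal the main region of IRF8 was higher (699). By the sum over promoter regions IRF9 was at percentile 35.5, below IRF3 (51.5), IRF8 (45.98) and IRF2 (44.1). The region differed from the other main promoters in its sequence: its CpG ratio was 0.132, at percentile 3.96 of all promoter regions, against a median of 0.716. The RefSeq window (GRCh38.p14, chr14:24161015-24161314, plus strand) lay inside the region, and is shown as the CpG-poor counterpart of the IRF1 promoter. Capitals mark a gamma-activated site 63 bp before the start.
IRF9 promoter window: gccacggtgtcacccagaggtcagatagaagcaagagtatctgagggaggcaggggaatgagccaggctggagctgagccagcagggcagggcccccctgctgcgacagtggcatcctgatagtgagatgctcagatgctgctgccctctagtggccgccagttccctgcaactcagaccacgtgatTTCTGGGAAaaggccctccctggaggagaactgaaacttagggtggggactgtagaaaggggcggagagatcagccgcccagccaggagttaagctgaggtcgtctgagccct
The whole region held 3 gamma-activated sites and 0 interferon-stimulated response elements by the letters searched. IRF9 had 0 distal regions.

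IRF5 is best known from macrophages, where it drives inflammatory cytokine genes downstream of Toll-like receptors. Its promoter region (chr7:128937591-128938950), which held 6 start sites, had a mean signal of 304 and 223 per kb, at percentile 24.2. The IRF1 level was 4.20 times as high. It held 2 kappa B sites, 0 gamma-activated sites and 0 interferon-stimulated response elements, and IRF5 had 0 distal regions.

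IRF4 and IRF8 are close relatives that act mainly in lymphoid and myeloid cells, where they bind DNA together with the ETS factor PU.1. Their accessibility differed widely in this line. Among the 7 members with a promoter region, that of IRF4 had the lowest level. Its region (chr6:391945-394049) was 2104 bp wide, wider than 97.3% of promoter regions, but had a mean signal of 123 and 58.3 per kb, at percentile 1.96. Without the division by width it was at percentile 21.7, and by the sum over promoter regions at 8.82. The IRF1 level was 16.1 times as high. The region contained none of its start sites and began 183 bp downstream of the nearest. The RefSeq window of IRF4 (GRCh38.p14, chr6:391502-391801, plus strand) therefore shared 0 bases with the open region. A window without shared bases was not particular to IRF4. The RefSeq windows of IRF8 and some of those of IRF5 also shared 0 bases with the regions of their genes. Those genes, however, had other start sites inside a promoter region, 3 for IRF8 and 6 for IRF5. Among the members with a promoter region, only IRF4 had none of its start sites inside one. The IRF4 window is shown because it is as rich in GC as that of IRF1 (74.0%), although the level of the region next to it was low. It held no match to the gamma-activated site, the kappa B site or the interferon-stimulated response element, so that no base is in capitals.
IRF4 promoter window: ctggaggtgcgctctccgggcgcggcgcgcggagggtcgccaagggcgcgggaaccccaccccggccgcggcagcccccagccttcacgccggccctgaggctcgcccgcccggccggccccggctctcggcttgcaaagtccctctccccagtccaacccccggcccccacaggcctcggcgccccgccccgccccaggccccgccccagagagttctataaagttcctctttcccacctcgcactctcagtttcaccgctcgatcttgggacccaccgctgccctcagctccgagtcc
Of the 2 distal regions of IRF4, 5884 bp apart and both upstream, that at 26792 bp (chr6:364710-365185) had a mean signal of 168 and 353 per kb (percentile 74.7), which is 6.06 times the level of the promoter region. The other (chr6:371069-372327) had a mean signal of 95.3 and 75.8 per kb (percentile 9.17).

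IRF8 had a promoter region above the median of all promoter regions and the most distal regions of the family. The main region (chr16:85898504-85899533), which held 3 of the 10 IRF8 start sites, had a mean signal of 699 and 679.7 per kb (percentile 62.4). A narrow region 1661 bp upstream (chr16:85897354-85897648) had a mean signal of 149 and 506 per kb (percentile 49.97). The main region had the highest CpG ratio of the member promoter regions (0.963, percentile 97.1), 2 gamma-activated sites and 2 kappa B sites. IRF8 had 8 distal regions, all of them centred outside protein-coding genes. Their number placed IRF8 at percentile 91.3 of all genes, beside a median of 1 region per gene. The upstream 3 of them lay within a span of 3320 bp, centred 10234, 9244 and 7493 bp before the start, with mean signals of 104, 731 and 504. They held 74.6% of the distal signal of the gene. The middle one (chr16:85889554-85890282) had the highest level per kb of all 36 regions. It reached 1005 per kb, percentile 95.04 of all distal regions and 1.48 times the level of the IRF8 promoter. By mean signal the IRF1 promoter regions were higher (1382 and 1208). The 5 downstream regions had between 103.7 and 375 per kb. The central 300 bp of the strongest region (hg38, chr16:85889769-85890068, plus strand) are shown as the distal sequence with the highest level. It held no match to the gamma-activated site, the kappa B site or the interferon-stimulated response element.
IRF8 distal region: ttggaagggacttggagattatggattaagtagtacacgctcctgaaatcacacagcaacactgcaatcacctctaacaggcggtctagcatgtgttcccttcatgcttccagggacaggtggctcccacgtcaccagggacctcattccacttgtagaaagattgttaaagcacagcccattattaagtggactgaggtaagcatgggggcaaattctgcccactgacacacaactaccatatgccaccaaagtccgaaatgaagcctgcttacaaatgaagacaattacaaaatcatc
Immune markers stood beside this result as follows: SPI1, which encodes PU.1, had 0 promoter regions, as did PTPRC, CD4, CD3E, MS4A1, CD79A, LYZ, ITGAM and CSF1R, and the 3 immune genes with a promoter region reached 45.2 to 460.3 per kb. Whether other cells contributed to the IRF8 signal was not tested.

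**Figure D2:**
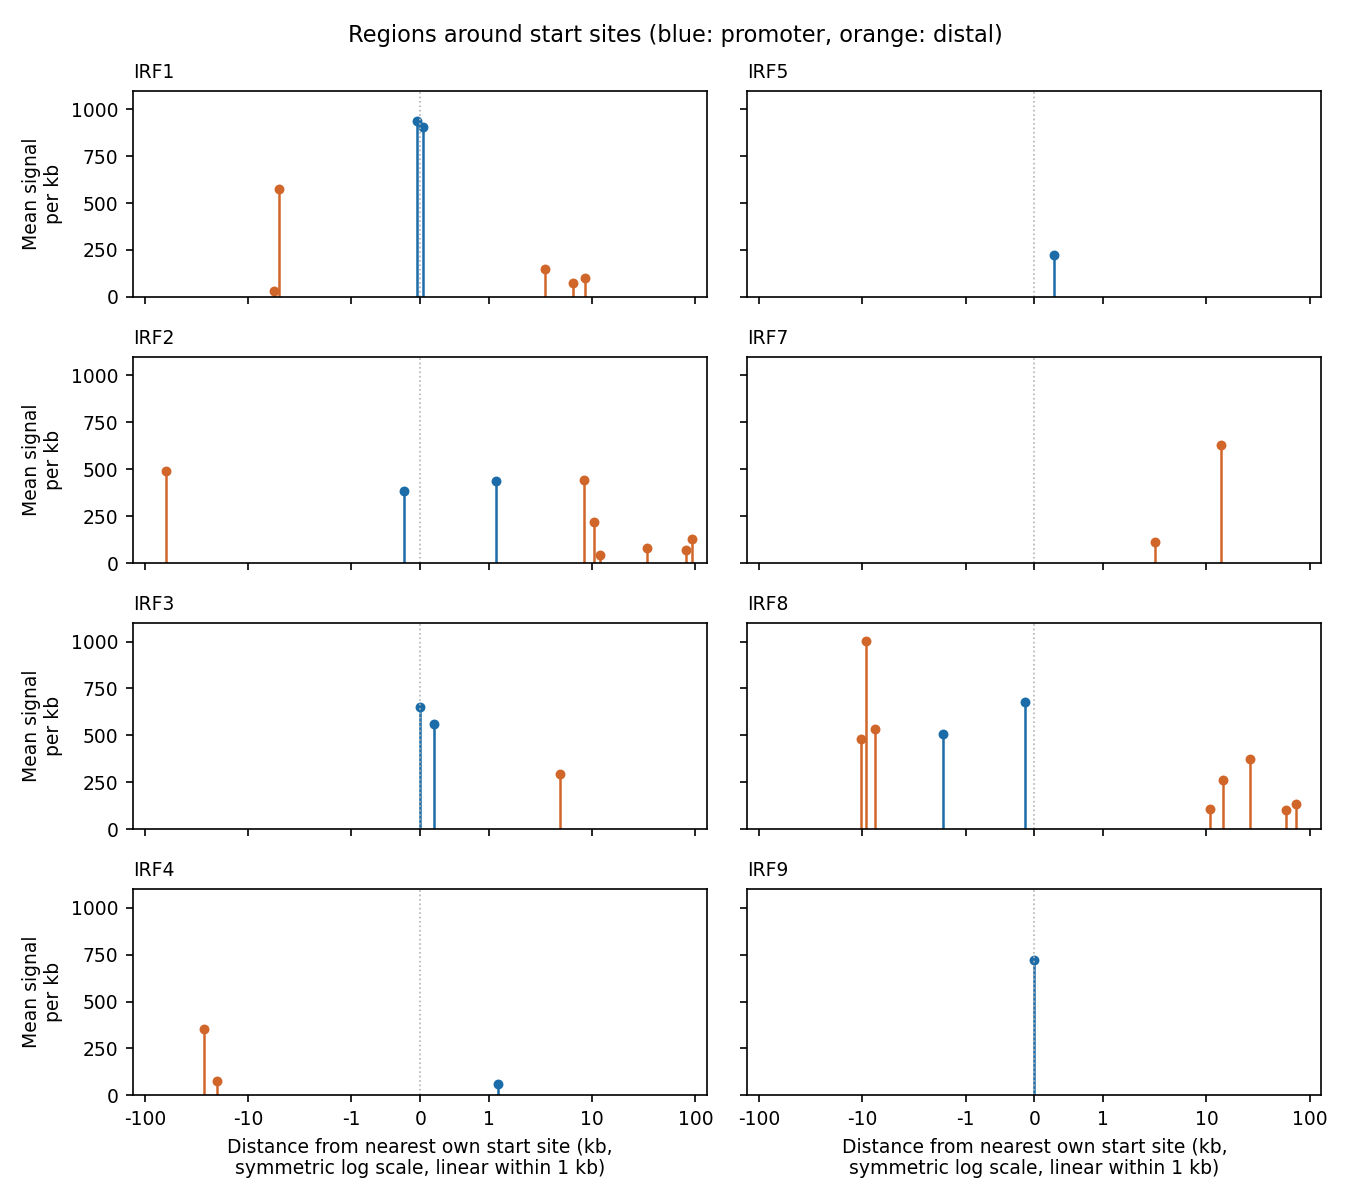
Position and level of the 36 regions, with 1 panel for each gene. The x axis is the distance of the midpoint of a region from the nearest start site of its own gene (kb, negative upstream, symmetric log scale) and the y axis the mean signal per kb; promoter regions are blue and distal regions orange. The cluster of 3 regions upstream of IRF8, the far upstream region of IRF2 and the lack of a blue point for IRF7 can be seen.

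In order of the strongest promoter region, the levels ran from IRF1 (939 per kb) through IRF9 (723), IRF8 (679.7), IRF3 (650.1), IRF2 (435) and IRF5 (223) to IRF4 (58.3). Since the mean carries no spread, it cannot be said which neighbours in this order differ. IRF1 stayed over the median of the regions it was compared with, and IRF4 and IRF5 under it, in all 7 other ways of ranking, with percentiles of 72.8 to 92.3 for IRF1, 16.5 to 37.6 for IRF5 and 0.146 to 21.7 for IRF4. IRF2, IRF3, IRF8 and IRF9 lay near the middle and crossed it under at least 1 of them, with ranges of 34.8 to 55.1, 49.4 to 69.1, 45.98 to 70.6 and 35.5 to 72.7. These 7 ways did not include a ranking per kb among the strongest promoter regions of all genes, which gave lower percentiles. There IRF1 was at 66.55, IRF9 at 52.65, IRF8 at 49.74 and IRF3 at 47.6. IRF2 was at 31.04, IRF5 at 14.93 and IRF4 at 1.307. The largest move of the IRF4 percentile came from leaving out the division by width. Of the 11 promoter regions, 6 were above the median level of all promoter regions.

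The 25 distal regions ranged from 32.7 to 1005 per kb with a median of 151, beside a median of 187 for all distal regions. Of these, 8 were above the 75th percentile of all distal regions and 10 below the 25th. Within 20 kb of a start site lay 16 of them, and 5 were farther than 50 kb away. By the annotation, 11 were centred in introns of protein-coding genes, 0 in their exons and 14 outside protein-coding genes. Those outside can still lie in a noncoding gene, as the IRF2 region chr4:184368267-184368465 did in LINC02362. Among the 5 members with both kinds of region, the strongest distal region exceeded the strongest promoter region per kb in 3 (IRF2, IRF4 and IRF8), and this was so for 38.8% of the 11004 genes with both kinds.

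What the promoter regions had in common beside their position was looked for in the sequence. A CpG ratio over 0.6 was found in 9 of the 11 promoter regions (81.8%), the exceptions being IRF9 and the upstream region of IRF8, and in 68.0% of all promoter regions. It was found in 3 of the 25 distal regions, beside 6.72% of all distal regions. In the central 300 bp, a gamma-activated site was present in 4 promoter regions (36.4%), those over the start sites of IRF2 and IRF9, the upstream region of IRF1 and the main region of IRF8, against 5.43% of all promoter regions. Over the whole length of the regions these shares were 45.5% and 18.5%. None of the 25 distal regions had such a site in the centre, beside 8.61% of all distal regions, and over both kinds of region the shares were 11.1% and 7.76%. The interferon-stimulated response element was present in the centre of 1 of 11 promoter regions (9.09%, beside 2.25%) and 0 of 25 distal regions (beside 3.78%), which is 2.78% of the 36. The shorter core AANNGAAA, which each such element contains, was present in 3 promoter regions (27.3%, beside 14.8%) and 7 distal regions (28%, beside 29.3%). A kappa B site was found in the centre of 2 promoter regions (18.2%, beside 7.37% of all promoter regions) and 1 distal region (4%, beside 4.37% of all distal regions), and over the whole length in 45.5% of the promoter regions, beside 22.2%. An SP1 site (GGGCGG) was found in the centre of 9 promoter regions (81.8%, beside 55.5%) and 2 distal regions (8%, beside 11.1%). An AP-1 site (TGANTCA) was found in the centre of 0 promoter regions (beside 4.51%) and 4 distal regions (16%, beside 11.3%), and a single arm of the p53 site in 0 promoter regions (beside 5.24%) and 2 distal regions (8%, beside 8.59%). A match is a run of letters and does not show that a factor was bound.

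**Figure D3:**
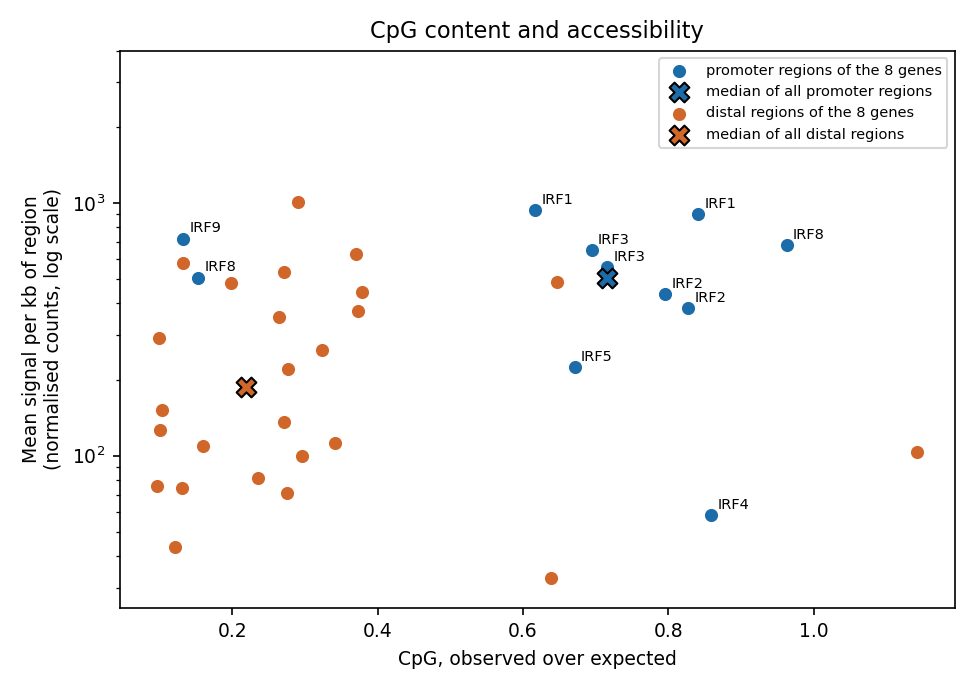
CpG content (observed over expected, x axis) and mean signal per kb (y axis, log scale) of the promoter regions (blue, named) and distal regions (orange) of the 8 genes, with crosses at the medians of all regions of each kind. IRF4 combines a CpG ratio of 0.859 with the lowest promoter level, and IRF9 a ratio of 0.132 with a level of 723 per kb.

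The rest of the interferon pathway was set beside the family by the strongest promoter region of each gene. Such a region was present for 15493 of all 19663 protein-coding genes. All 6 interferon receptor genes had a promoter region, with levels from 250.5 per kb at IFNGR2 to 998 at IFNGR1 and a median of 535. Of these, 2 were above the median of all genes. All 11 JAK and STAT genes had one, from 198 at JAK3, a kinase of lymphoid cells, to 2133 at STAT2, the partner of IRF9 in ISGF3, with a median of 601 and 5 above the median of all genes. Of the 16 nucleic acid sensors and their adaptors, 9 had a promoter region, with a median of 486. The highest level was 2266 per kb at MYD88, the adaptor of Toll-like receptors, though that region was shared with ACAA1, and the lowest was 66.2 at CGAS, the sensor of cytosolic DNA. The promoter region was lacking for STING1, through which CGAS signals, and for DHX58, TLR3, TLR7, TLR8, AIM2 and ZBP1. In senescent cells of this line, the paper reports lower mRNA of several interferon-response genes after partial cGAS silencing or a STING inhibitor. A weak or missing region here thus does not show that a gene was inactive, and expression was not tested. TBK1, the kinase of IRF3 and IRF7, had 702 per kb, and MAVS, the adaptor of the RNA sensors, 1029. The 7 IRF genes with a promoter region had a median of 650.1, and 2 of them, IRF1 and IRF9, were above the median of all genes.

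**Figure D4:**
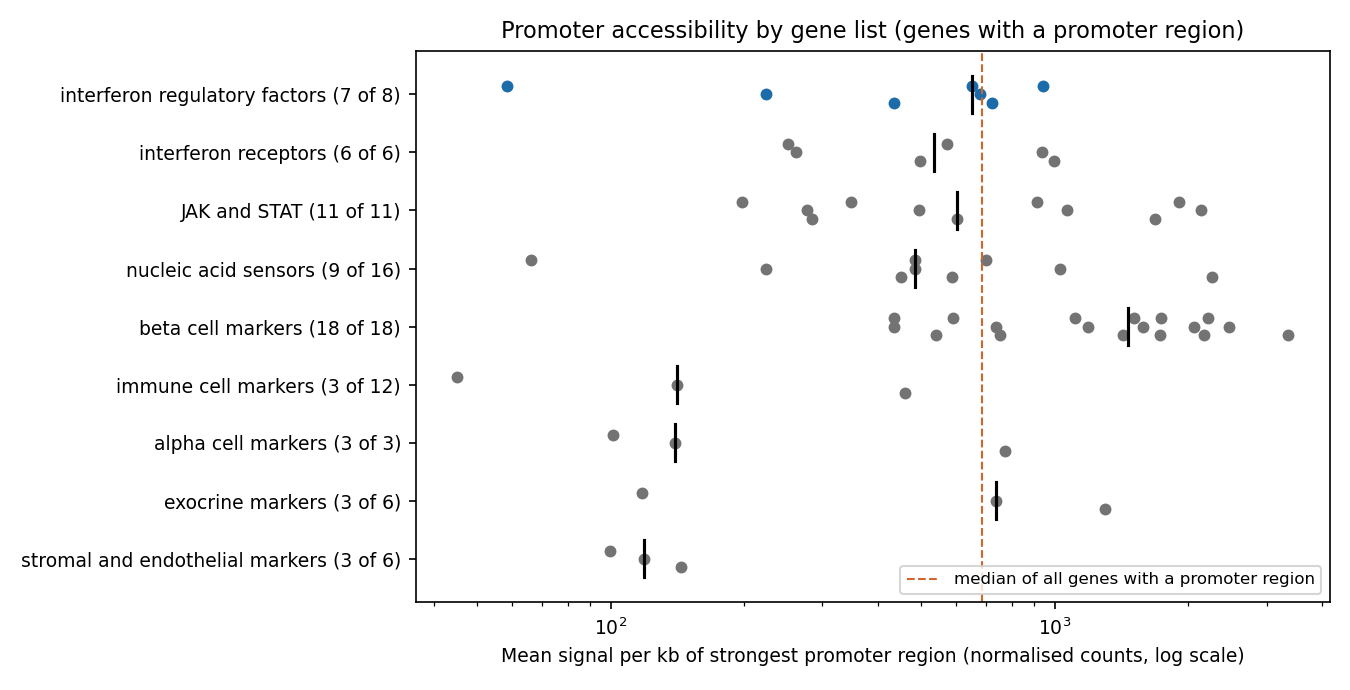
Mean signal per kb of the strongest promoter region of each gene (x axis, log scale) by gene list, with the number of genes that have such a region in brackets. Black bars are list medians and the dashed line is the median of all genes (686 per kb). The IRF genes, in blue, span 58.3 to 939 per kb, and beta cell markers lie mostly to the right of the line.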

How the data were processed

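ATAC-seq libraries of EndoC-βH3 cells (3 non-senescent, 3 senescent, grouped by their titles) were analysed from 1 deposited table. According to its methods and processing notes, the authors used Trim Galore for trimming, Bowtie2 for alignment (hg38), Picard for duplicates, deepTools for the Tn5 shift and MACS2 for peaks. Mitochondrial reads were dropped. The authors then scored the union of peaks for read counts, which they entered into DESeq2. Versions are not given in the sources used here. The deposited mean signal is the authors' mean over libraries of counts divided by size factors. A further 5 columns hold the authors' comparison of the groups (log2 fold change, its standard error, test statistic, p-value and adjusted p-value) and were not used, so no difference between the groups was tested.

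Start sites came from protein-coding transcripts of GENCODE 44. All 24 chromosomes of the table were found in the hg38 reference, and 0 regions passed a chromosome end. Coordinates are printed as in the table and were read as BED intervals. Mean signal was divided by width, and percentiles were taken among all promoter or distal regions. A gene was represented by its promoter region of highest mean signal. All 8 members are named, with their strongest regions and the distal regions with a response element or gamma-activated site, and other lists by their extremes, some of which are not reported here; other genes of these lists were named after their values were seen. Motifs were sought on both strands in the central 300 bp of regions, in whole regions and in RefSeq promoter windows (GRCh38.p14), which were found for 5 members; IRF2, IRF3 and IRF7 had no entry. Assignment and motif search were tested on simulated data. Python 3.11.15, pandas 2.3.3 and matplotlib 3.10.9 were used. The members and lists were chosen with earlier results of these data known.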

Additional observations from a re-analysis of the deposited data

How the results depend on the processing

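No paired analysis was possible because the mean over all libraries holds no value for a single library, and for the same reason libraries could not be left out in turn. Of 15 counts and shares under an alternative, 12 differed from the reported count by a factor under 1.5 or lay inside the 95% Wilson interval of the reported share. The 25 distal regions became 11 with start sites of all genes, and 16 with a mean signal of at least 50. With more start sites, more of them compete for each region, and more regions fall within a promoter window. The promoter regions of the members rose from 11 to 13 under that setting. The share of regions with a response element rose from 2.78% to 27.8% when the core alone was sought, since fewer letters had to match. Over all promoter and distal regions these shares were 3.37% and 25.4%, so the rise was not particular to the members. With start sites of all genes IRF7 also had a promoter region, so that all 8 members had one. That setting also takes in transcripts of the members that are not classed as protein-coding. The lack of an IRF7 promoter region thus holds for its protein-coding transcripts only. Of 49 percentiles of single promoters under an alternative, 47 left the counting interval of the reported value. That interval does not measure a spread between libraries, and small moves left it. IRF1, for instance, went from percentile 76.01 to 74.35 with a promoter window of 1 kb.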

Other observations

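The distal region 58723 bp downstream of an IRF8 start site (chr16:85972658-85972875) had a CpG ratio of 1.142, at percentile 99.9 of all distal regions, and a low level of 103.7 per kb. It was 217 bp wide, with a mean signal of only 22.5 (percentile 8.875 of all distal regions). The region 5594 bp upstream of IRF1 (chr5:132514153-132514474) had the lowest level of the family, 32.7 per kb, at percentile 0.824. Its mean signal was only 10.5 (percentile 0.837). It held both a kappa B site and a single arm of the p53 site in its centre. These features were noticed in the values and were not tested.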
